A study of Mus musculus with 28 samples.

Results

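The rodent miR-297, miR-466, miR-467 and miR-669 families were examined in mouse blood. Their members were all rows of the small noncoding RNA tables whose name starts with mmu-miR-297, mmu-miR-466, mmu-miR-467 or mmu-miR-669 followed by a letter or a hyphen, both hairpin arms included. This gave 80 of 1966 miRNA rows, with 6 rows of miR-297, 31 of miR-466, 13 of miR-467 and 30 of miR-669. The libraries came from 14 female wildtype C57BL/6N mice, with 3 mice of 2 months, 4 of 6 months, 3 of 8 months, 2 of 12 months and 2 of 18 months. Plasma of each mouse was cleared of platelets and debris by centrifugation and then ultracentrifuged, so that each mouse gave an EV-enriched pellet (EV, extracellular vesicles) and the EV-depleted plasma above it, which the labels call free circulating RNA. The 28 libraries thus answered which members circulate, in which fraction, and whether their level moves with age. All groups shared genotype, strain and sex, no group received a treatment beyond anesthesia, and ultracentrifugation does not separate vesicles from other particles that sediment with them.

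miRNAs are cut from hairpin transcripts, and one or both arms of the hairpin (5p and 3p) are kept in a silencing complex that recognizes messenger RNAs through the seed, here bases 2 to 8. Most hairpins of the 4 families lie in a tandem repeat array inside an intron of Sfmbt2, a gene of the Polycomb group that is imprinted in mouse and needed for the placenta. The array is known from rodents, its hairpins are copies of each other, and the arms are rich in alternating U and G on one side and A and C on the other. Many members therefore have near-identical relatives, and a short read often matches several of them.

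In the GENCODE annotation of GRCm38, 82 hairpin genes carried a name of the families, and 72 of them lay inside Sfmbt2 (chr2:10370510-10595253, plus strand). All 72 were on the strand of Sfmbt2, none overlapped an exon of it, and they spanned 51.6 kb within a single intron. By family, 5 of 6 miR-297 hairpins, 24 of 29 miR-466 hairpins, 14 of 17 miR-467 hairpins and 29 of 30 miR-669 hairpins were in the intron. The order miR-467, miR-466, miR-669 occurred 12 times in a row of neighbouring hairpins, and the starts of neighbouring runs were a median of 2.45 kb apart. The other 10 hairpins were on chromosomes 3, 5, 7, 9, 10, 11 and 13, and Mir466i, on chromosome 13, is the one that mattered most for the levels below.

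**Figure D1:**
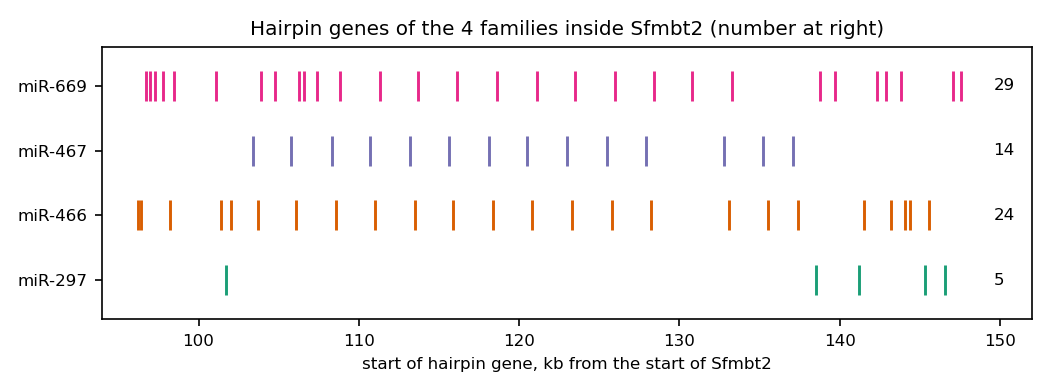
Position of the 72 family hairpin genes inside Sfmbt2, with the distance of each hairpin start from the start of Sfmbt2 in kb on the x axis and the family on the y axis; each tick is 1 hairpin and the number at the right counts them. The miR-467, miR-466 and miR-669 ticks repeat together at a near-even distance in the middle of the array, whereas 4 of the 5 miR-297 ticks lie at its far end.

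RefSeq (GRCm38.p6) held the mature sequence of 8 of the 80 members, all from hairpins outside Sfmbt2. They are printed to show the repeat in these 8 rows, of which none is a miR-297 row or comes from the array. Sequences of the other members were not available here, so the repeat values below describe these 8 and not the families as a whole. Capitals mark the seed, and the 8 seeds were all different:
miR-466i-3p (chr13:17747552-17747573, plus strand): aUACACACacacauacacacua
miR-466q (chr3:28419988-28420007, plus strand): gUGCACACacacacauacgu
miR-466j (chr10:60960802-60960824, plus strand): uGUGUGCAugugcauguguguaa
miR-466k (chr3:85467396-85467418, plus strand): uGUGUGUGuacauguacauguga
miR-467f (chr11:69635419-69635439, minus strand): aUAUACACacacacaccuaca
miR-467g (chr5:34732872-34732892, minus strand): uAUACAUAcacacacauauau
miR-467h (chr9:115381898-115381919, plus strand): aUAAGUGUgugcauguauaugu
miR-669n (chr3:115979905-115979924, plus strand): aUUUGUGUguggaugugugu

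The repeat was read directly from these letters. UGUGUGUG or its complement ACACACAC stood in 6 of the 8 members, against 11 of 1679 mature mouse miRNAs in the same table (0.655%), and the 6 are among the 11. The longest run of alternating purine and pyrimidine covered a median of 93.3% of the length in the 8 members and 18.2% over the 1679 miRNAs. The 5 others with such a repeat were miR-574-5p, miR-1187, miR-3082-5p, miR-32-3p and miR-672-5p. miR-574-5p (chr5:64970328-64970350, plus strand) is shown because it was the most abundant of the 5 in these libraries:
miR-574-5p: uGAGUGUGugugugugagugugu

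The depth differed widely between libraries. Totals over all RNA classes were 4764338 to 52753818 counts in the EV libraries and 928651 to 23905651 in the plasma libraries, of which miRNAs made up 20063 to 203624 and 4977 to 82646. The deposited RPM values divide each count by 1 number per library, and 1 count was worth 0.0722 to 0.23 RPM in 26 libraries. In replicate 1 of 6 months and replicate 1 of 12 months in plasma, 1 count was worth 1.7 and 0.664 RPM, so a level of 0 or above 1 RPM there rests on very few reads. The plasma labels of replicates 2 and 3 of 2 months carry the same code and were paired with the EV pellets by replicate number only. All 11 miRNAs listed as marks of red cells, platelets, liver and skeletal muscle had counts in both fractions, led by the red-cell miR-451a at 1210 ± 973 RPM in EVs and 1050 ± 591 in plasma (SD, n = 14 each), and their part in the member levels was not tested.

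Nearly all members were found, but few at more than a handful of reads. At least 1 count was present for 79 of the 80 rows. The exception was miR-466h-5p, for which 0 counts allow up to 0.0252 RPM over the pooled EV libraries and 0.0352 over the pooled plasma libraries (3 counts, counting error only). Over all 28 libraries 26 rows had under 10 counts, 34 had 10 to 99 and 20 had 100 or more. A library held 25 to 60 member rows with a count in EVs and 18 to 52 in plasma, with medians of 43.5 and 39.

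A row was taken as circulating when it reached 1 RPM in over 10% of the 14 libraries of either fraction, which means 2 or more. This held for 20 of 80 member rows (25.0%) and for 333 of all 1966 miRNA rows (16.9%). All 20 passed in EVs and 19 in plasma, where miR-669f-3p stayed under the limit. The 20 comprised 3 of 6 miR-297 rows, 11 of 31 miR-466 rows and 6 of 30 miR-669 rows. No miR-467 row passed, and the most abundant of that family, miR-467d-3p, ranged from 0 to 1.12 RPM in EVs (median 0.375) and from 0 to 0.691 in plasma (median 0.236).

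The 20 rows did not hold 20 separate measurements. Rows were taken as sharing reads when their absolute differences in count, summed over libraries, came to 15% or less of the larger total. By this the 20 rows fell into 12 sets, out of 67 sets among all member rows. The rule misses a row whose reads are only a part of another's. miR-466i-3p (282 counts) and miR-466f-3p (398) stayed in separate sets. Yet miR-466i-3p was at or below miR-466f-3p in every library, with a Spearman's rho of RPM of 0.899 in EVs and 0.908 in plasma. Whether they share reads was not tested, so 12 may be too many. The share of passing member rows given above counts shared reads once per row. It therefore does not show that members pass the limit more often than miRNAs in general. miR-297a-3p, miR-297b-3p and miR-297c-3p had 193.5, 193 and 192 counts. The 6 rows miR-466a-3p, miR-466b-3p, miR-466c-3p, miR-466d-3p, miR-466e-3p and miR-466p-3p had 248.25 to 270 counts each, and miR-466a-3p equalled miR-466e-3p in every library. miR-669a-3p and miR-669o-3p had 516.727 and 516 counts. Within such a set the rows cannot be told apart, so each is described once, under its first name.

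Counts that were not whole showed the same sharing within a name. The smallest step of miR-669a-3p was 1 part in 11, that of miR-466b-3p 1 part in 8 and that of miR-466f-3p 1 part in 3, and the annotation holds 11, 8 and 3 hairpin copies with that mature name (not counting Mir669a-3, which has rows of its own, nor Mir466f-4). For miR-297a-3p and miR-669a-5p the smallest step seen was 1 part in 2, with 4 and 11 copies annotated. For miR-466c-3p the 3 copies include a hairpin named through a RefSeq synonym. The tables do not give where in the genome a read lay, so reads from UG or CA repeats that are not hairpins could not be separated from member reads.

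miR-466i-5p, the 5p arm of the chromosome 13 hairpin (chr13:17747473-17747593), stood far above the other members. It held 3046 counts, 44.7% of all member counts with 1 row per set of shared reads, and was above 1 RPM in all 28 libraries. In EVs it measured 15.2, 8.12 and 15 RPM at 2 months, 12.6, 15.5, 9.12 and 14.4 at 6 months, 10.6, 24.0 and 4.03 at 8 months, 21 and 16.8 at 12 months, and 31.5 and 21.6 at 18 months. In the plasma of the same mice it measured 16.4, 10.5 and 10.7 RPM at 2 months, 17.0, 11, 10.6 and 14.7 at 6 months, 8.72, 10.4 and 9.08 at 8 months, 24.6 and 17.0 at 12 months, and 29.0 and 20.3 at 18 months. The fractions overlapped at every age, and the highest library of each fraction was the same 18-month mouse. The means were 15.7 ± 7.11 RPM in EVs and 15 ± 6.18 in plasma (SD, n = 14 each), rank 66 and rank 61 among the miRNA rows. As a share of miRNA counts it made up 0.238% ± 0.132 in EVs and 0.248% ± 0.0917 in plasma. All of these values go by the name of the row. Its mature sequence was not available here, and reads from repeats elsewhere in the genome could not be separated from its counts.

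All other members had means under 3 RPM. miR-669a-3p ranged from 0.487 to 6.86 RPM in EVs (median 1.95) and from 0.993 to 6.81 in plasma (median 2.38). miR-466f-3p, from a hairpin with several copies in the array, ranged from 0.588 to 4.38 RPM in EVs (median 2.06) and from 0.221 to 3.18 in plasma (median 1.80). miR-466h-3p had medians of 1.49 RPM in EVs and 1.71 in plasma. The other arm of the chromosome 13 hairpin, miR-466i-3p, had medians of 1.44 and 1.33 RPM. The set of 6 rows led by miR-466a-3p had medians of 1.38 and 1.06 RPM for that row. The other 6 sets, miR-669p-3p, miR-297a-3p, miR-466g, miR-669c-3p, miR-669c-5p and miR-669f-3p, had means under 1.2 RPM in both fractions. Neighbours in this order below miR-466i-5p differed by less than their SD over mice.

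Member counts were also sorted by where the annotation places the hairpins of a row, which is not where a read was mapped. With 1 row per set of shared reads, the 9 rows whose hairpins all lie outside Sfmbt2 held 3493 counts (51.3%), 54 rows from hairpins inside Sfmbt2 held 2684.5 (39.4%), and 4 rows whose name has hairpins in both places held 629.5 (9.25%). The last group includes miR-466f-3p with 398 counts, placed there by the name of Mir466f-4, which lies outside. Its step of 1 part in 3 equals the 3 copies inside Sfmbt2, without Mir466f-4. Taken as inside, its counts would raise the inside share. The outside counts were mostly miR-466i-5p, and the other 8 outside rows held 447. Of these 447, 282 were of miR-466i-3p, whose count was at or below that of miR-466f-3p in every library. Whether they share reads was not tested, so some reads may be counted as outside and again under miR-466f-3p. The outside share was 39.5% with rows of equal counts taken once and 37.9% with every row summed. Per library the outside rows made up 37.9% to 64.3% of member counts in EVs (median 52.0%) and 40.0% to 69.9% in plasma (median 48.8%). In RPM the rows from inside Sfmbt2 summed to 13.3 ± 4.69 in EVs and 13.3 ± 4.00 in plasma, and the outside rows to 17.9 ± 7.71 and 17.1 ± 5.87 (SD, n = 14 each). Both sums thus differed between the fractions by less than the spread over mice.

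The 3p arm was the more abundant for most names and most sets. Both arms were listed for 33 names, of which 28 had more 3p than 5p counts over all libraries, 28 in EVs alone and 24 in plasma alone. Names whose 3p rows share reads repeat each other in this count, and taken as 1 they left 24 sets, of which 19 had more 3p counts over all libraries, 19 in EVs and 15 in plasma. The 5 names with more 5p counts were miR-466i, miR-466o, miR-467e, miR-669e and miR-669l. For miR-466i the 5p arm had 3046 counts and the 3p arm 282, whereas miR-466o had 4 and 2, miR-669l 10 and 9, miR-669e 19 and 5, and miR-467e 32 and 24. Without miR-466i-5p, all 5p rows held 476.75 counts against 2935.2 of the 3p rows, with 1 row per set of shared reads. Of the 20 rows that passed the 1 RPM limit, 17 were 3p, 2 were 5p (miR-466i-5p and miR-669c-5p) and 1, miR-466g, carries no arm in its name.

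**Figure D2:**
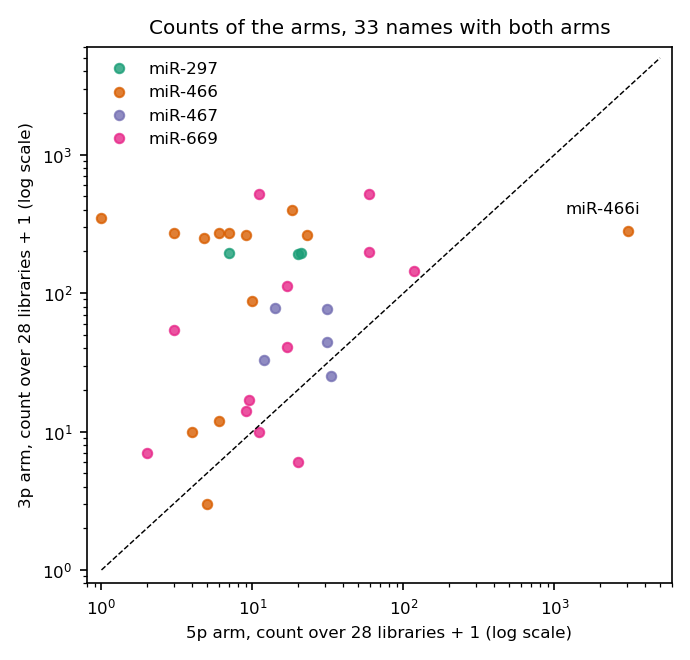
Counts over all 28 libraries of the 3p arm (y axis) against the 5p arm (x axis) for the 33 names with both arms, both on a log scale after adding 1; points are names, colored by family, and the dashed line marks equal counts. Of the 33 points 28 lie above the line, and miR-466i, with 3046 counts of its 5p arm and 282 of its 3p arm, lies far to the right of all others.

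Summed over a family, with rows of equal counts taken once, the levels of the fractions were close. All members together reached 17.3 to 72.9 RPM in EVs (median 42.7, mean 45.1 ± 14.4) and 26.5 to 60.2 in plasma (median 41.4, mean 42.1 ± 11), with the EV value higher in 9 of 14 mice. The miR-466 family made up most of it, with 30.3 ± 9.81 RPM in EVs and 27.6 ± 8.60 in plasma. miR-297 measured 3.34 ± 1.54 and 2.54 ± 1.39 RPM, and miR-467 2.26 ± 1.16 and 1.59 ± 0.807. These sums still count the shared miR-297a/b/c-3p reads once per row, and with 1 row per set of shared reads miR-297 measured 1.29 ± 0.652 and 0.974 ± 0.479 RPM, below miR-467 at 1.82 ± 0.873 and 1.36 ± 0.693. The miR-669 family was the one with the lower mean in EVs, at 9.18 ± 4.30 against 10.4 ± 3.98 RPM (SD, n = 14 throughout), and the EV value was higher in 4 of 14 mice. Its highest plasma sum, 20.4 RPM, was that of replicate 1 of 6 months. In that library 1 count was worth 1.7 RPM, so this part of the plasma mean rests on few reads. For miR-466 and miR-467 the EV value was higher in 10 of 14 mice each, and for miR-297 in 8, with rows of equal counts taken once. These counts of mice use RPM, which places miRNAs in general higher in EVs. The median log2 fold change over all miRNAs, EV over plasma, was 0.28 with RPM scaling and 0.022 with the TMM scaling of the tests below. Every difference in mean between the fractions given here was smaller than the SD over mice. That SD is not the spread of the difference within a mouse, against which the sums were not tested. The members together made up 0.698% ± 0.316 in EVs and 0.708% ± 0.167 in plasma of the miRNA counts.

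No member differed between EV-enriched and EV-depleted plasma at an adjusted p under 0.05 in edgeR's quasi-likelihood test with age as a covariate. That was 0 of 20 rows tested, with 0 also at an unadjusted p under 0.05 and 0 by DESeq2, whereas over all 333 miRNAs tested 61 passed (18.3%). Of those, 27 had their higher level in EVs (8.11%) and 34 in plasma (10.2%). The log2 fold changes of the members, EV over plasma, ran from -1.07 to 0.37 with a median of 0.0081, against a median of 0.022 over all miRNAs. Over the 12 sets 5 were above 0 and 7 below. Their standard errors were 0.20 to 0.54 (median 0.30), near the median of 0.27 over all miRNAs, and of the 12 sets only miR-669c-5p and miR-669p-3p had 95% intervals that reached a change of 1 on the log2 scale in either direction. This fit does not use that both fractions come from one mouse. The fit with a term for each mouse, in which 1 member passed, is given below.

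The best-measured member gave the narrowest interval. miR-466i-5p had a log2 fold change of -0.04 (SE 0.20, 95% interval -0.45 to 0.37, adjusted p = 0.943, edgeR), which bounds its EV level between 0.734 and 1.29 times that of plasma. A term for each mouse in place of age gave -0.16 (95% interval -0.50 to 0.19, adjusted p = 0.525, edgeR). Of the 14 mice, 6 had more of it in EVs. With RPM scaling in place of TMM and age as the covariate, the log2 fold change was 0.0772, so its sign depended on the scaling.

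The 3 smallest p among members were all from miR-669 and all lower in EVs. miR-669c-5p was at 0.0996, 0.325 and 0.235 RPM at 2 months in EVs, 1.4, 0.23, 1.09 and 0 at 6 months, 0.447, 0.612 and 0 at 8 months, 0.674 and 0.289 at 12 months, and 0.812 and 0.309 at 18 months. In plasma it was at 0.735, 0 and 0.341 RPM at 2 months, 1.7, 1.06, 1.18 and 0.878 at 6 months, 2.12, 1.37 and 0 at 8 months, 0 and 0.482 at 12 months, and 1.15 and 0.434 at 18 months. The fractions overlapped, but 11 of 14 mice were lower in EVs and 2 higher. These levels stand on 48 counts in EVs and 68 in plasma. The log2 fold change was -1.07 (SE 0.54, adjusted p = 0.153, edgeR). With a term for each mouse, which uses that both fractions come from one animal, it was -1.11 (SE 0.41, adjusted p = 0.0395), the only member to pass there, and 88 of 333 miRNAs passed in that fit (26.4%). When each mouse was left out of that fit in turn, an analysis added after the values were seen, miR-669c-5p passed in 6 of 14 fits, with adjusted p from 0.0257 to 0.108.

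miR-669p-3p ranged from 0 to 1.85 RPM in EVs (median 0.777) and from 0 to 2.53 in plasma (median 1.11). Its log2 fold change was -0.62 (95% interval -1.28 to 0.04). The miR-669a-3p and miR-669o-3p set had a log2 fold change of -0.45 (SE 0.26, adjusted p = 0.227, edgeR), and -0.43 (SE 0.17, adjusted p = 0.0626) with a term for each mouse. It was lower in EVs in 9 of 14 mice. In the opposite direction the set led by miR-466a-3p was highest, with a log2 fold change of 0.37 (95% interval -0.24 to 0.98). By RPM, which places miRNAs in general higher in EVs, its EV level was higher in 10 of 14 mice.

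**Figure D3:**
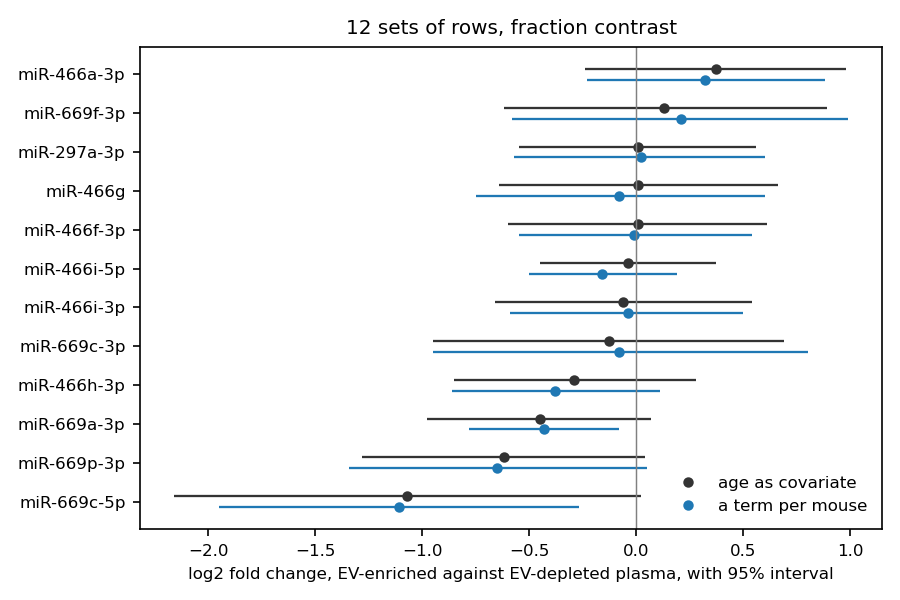
Log2 fold change of EV-enriched over EV-depleted plasma (x axis) for the first row of each of the 12 sets (y axis), with points for the estimates and lines for 95% intervals; black is the fit with age as a covariate and blue the fit with a term for each mouse. All 12 black intervals cover 0, and of the blue intervals those of miR-669c-5p (-1.95 to -0.27) and miR-669a-3p (-0.78 to -0.08) do not.

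Age was tested within each fraction as a slope in months. In plasma 0 of 19 members passed an adjusted p of 0.05 in edgeR and 0 passed by DESeq2, against 0 of 304 miRNAs tested (0%), and at an unadjusted p under 0.05 there was 1 member and 47 of the 304 miRNAs (15.5%). In EVs 0 of 20 members passed by either tool and 0 at an unadjusted p under 0.05, against 1 of 307 miRNAs passing (0.326%) and 37 at an unadjusted p under 0.05 (12.1%). The difference of the slopes between the fractions passed in 0 of 20 members by either tool, with 0 at an unadjusted p under 0.05, and in 0 of 333 miRNAs (0%), of which 11 had an unadjusted p under 0.05 (3.30%). Median slopes of the members were -0.0021 log2 per month in plasma and -0.014 in EVs, against -0.0019 and 0.0014 over all miRNAs.

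miR-466i-5p had the smallest p in plasma. Its slope was 0.054 log2 per month (SE 0.020, 95% interval 0.012 to 0.097, adjusted p = 0.193, edgeR quasi-likelihood test). By the values given above, its plasma mean and SD were 12.5 ± 3.37 RPM over the 3 mice of 2 months, 13.3 ± 3.08 over the 4 of 6 months, 9.41 ± 0.897 over the 3 of 8 months, 20.8 ± 5.35 over the 2 of 12 months and 24.6 ± 6.19 over the 2 of 18 months. In EVs the slope was 0.027 log2 per month (SE 0.034, adjusted p = 0.723), and the difference of the slopes, EV minus plasma, was -0.042 (95% interval -0.12 to 0.038). The slope in EVs turned to -0.014 without the 18-month mice.

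miR-297a-3p, with the rows miR-297b-3p and miR-297c-3p that share its reads, came next in plasma, with a slope of -0.076 log2 per month (SE 0.045, adjusted p = 0.411, edgeR). Its plasma levels were 1.35, 1.24 and 0.797 RPM at 2 months, 0, 1.06, 1.12 and 1.54 at 6 months, 0.825, 0.513 and 0.252 at 8 months, 0 and 1.09 at 12 months, and 0.691 and 0.579 at 18 months. The ages overlapped, and both zeros fell in the 2 plasma libraries named above, in which 1 count was worth most. In EVs its slope was -0.014 (SE 0.037).

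In EVs the smallest p was that of miR-466g, with a slope of 0.055 log2 per month (SE 0.042, adjusted p = 0.553, edgeR). One library of 18 months, at 3.25 RPM, stood above the other EV libraries, which ran from 0.378 to 1.23, and without that mouse the slope was -0.048. The rows miR-466c-3p and miR-466p-3p, of a shared set, both had a slope of -0.049 (adjusted p = 0.605). The smallest p for a difference of slopes was that of miR-669p-3p, at -0.11 log2 per month for EV minus plasma (SE 0.059, adjusted p = 0.997, edgeR), followed by miR-466h-3p at -0.073 and miR-466g at 0.078.

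**Figure D4:**
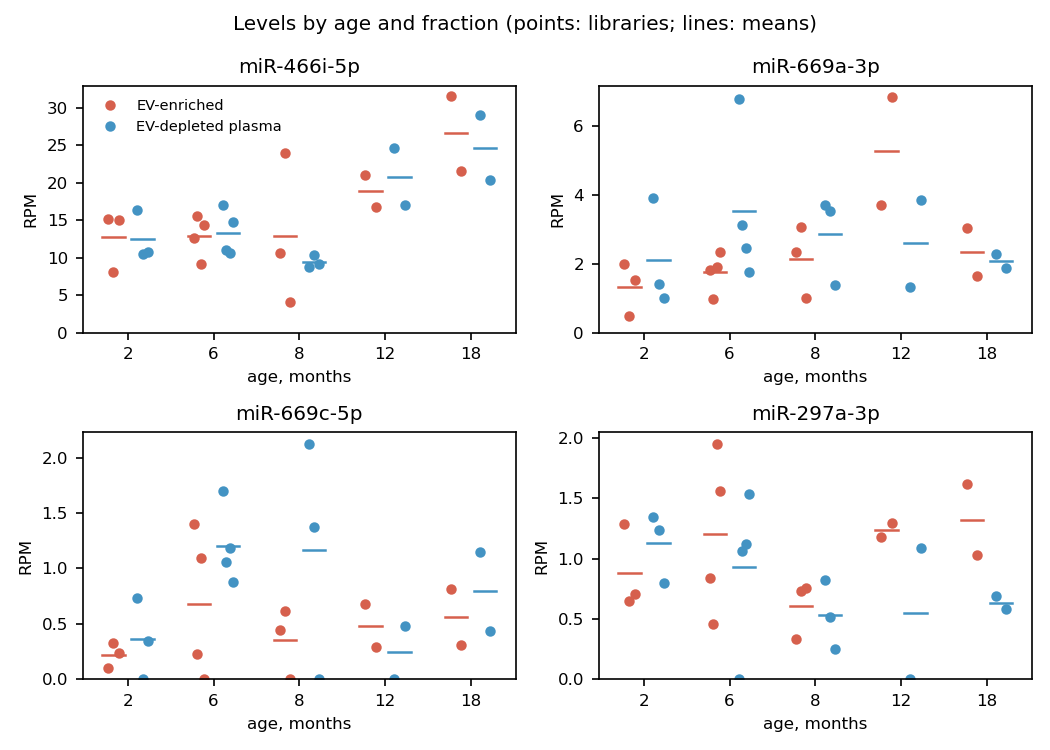
RPM (y axis) of miR-466i-5p, miR-669a-3p, miR-669c-5p and miR-297a-3p by age in months (x axis) in EV-enriched pellets (red) and EV-depleted plasma (blue); points are libraries, 2 to 4 per age and fraction, and lines are means. The miR-466i-5p points of 12 and 18 months lie between 16.8 and 31.5 RPM, and the fractions overlap in each panel.

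Rank correlations of RPM with age gave another picture in EVs, one that the members shared with miRNAs in general. All 20 member rows had a Spearman's rho above 0 in EVs, with a median of 0.272, and the median over all 307 miRNAs was 0.270. A rho above 0.5 was reached by 5 of 20 member rows and by 33 of 307 miRNAs (10.7%), and a rho under -0.5 by 0 member rows and 1 miRNA (0.326%). The 5 rows were miR-466f-3p, miR-466i-5p, miR-466d-3p, miR-669a-3p and miR-669o-3p. The last pair share their reads, and the 5 other rows in the shared-read set of miR-466d-3p (rho 0.539) had rho of 0.171 to 0.209. In plasma 13 of 19 rows were above 0, the medians were 0.180 for members and 0.0472 for all miRNAs, and 1 member row was above 0.5 (against 2.96% of miRNAs) and 1 under -0.5 (against 5.59%). No member passed after adjustment over all miRNAs in both fractions. With the RPM divisor as library size in the slope test, all 20 EV slopes of members were above 0, their median was 0.037 log2 per month and that of all miRNAs 0.052, so the upward shift appeared with RPM scaling and was present over all miRNAs as well.

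At the ends of the order, miR-466f-3p had the highest rho in EVs, 0.582 (permutation p = 0.0312, adjusted p = 0.642) with Pearson's r of 0.607 (permutation p = 0.0210, adjusted p = 0.307). Its levels ran from 0.588 to 4.38 RPM, and without the 18-month mice rho was 0.481 and r 0.446. miR-669c-3p had the lowest rho, 0.0157 (permutation p = 0.960, adjusted p = 0.998), with r of 0.116 (permutation p = 0.692, adjusted p = 0.882). In plasma miR-669p-3p was highest with rho 0.542 (permutation p = 0.0474, adjusted p = 0.642) and r 0.706 (permutation p = 0.00439, adjusted p = 0.307). Without the 18-month mice its rho fell to 0.279 and its r to 0.492. miR-297a-3p was lowest in plasma with rho -0.506 (permutation p = 0.0685, adjusted p = 0.642) and r -0.375 (permutation p = 0.186, adjusted p = 0.535). For miR-466i-5p, rho was 0.573 in EVs (permutation p = 0.0356, adjusted p = 0.642) and 0.407 in plasma (permutation p = 0.148, adjusted p = 0.651). Its r was 0.656 in EVs (permutation p = 0.0109, adjusted p = 0.307) and 0.707 in plasma (permutation p = 0.00514, adjusted p = 0.307). Without the 18-month mice its rho was 0.347 in EVs (permutation p = 0.265) and 0.0615 in plasma (permutation p = 0.850). Its r was then 0.324 in EVs (permutation p = 0.302) and 0.427 in plasma (permutation p = 0.164). By contrast, its plasma slope in the count test was 0.065 log2 per month without them (adjusted p = 0.616, edgeR), against 0.054 with them.

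**Figure D5:**
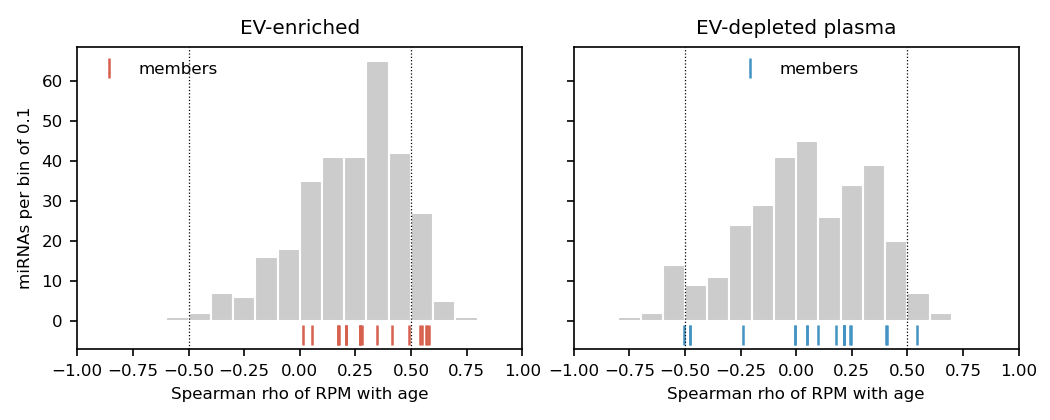
Number of miRNAs (y axis, grey bars) by Spearman's rho of RPM with age (x axis, bins of 0.1) among the 307 miRNAs tested in EV-enriched pellets (left) and the 304 in EV-depleted plasma (right); colored ticks below the bars are the member rows and dotted lines mark -0.5 and 0.5. The EV bars and the 20 EV ticks both lie mostly above 0, with medians of 0.270 and 0.272.

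The spread between mice was set beside what counting alone gives. miR-466i-5p had a coefficient of variation over mice of 45.3% in EVs and 41.2% in plasma, where its counts alone would give 8.99% and 15.2%. For miR-669a-3p these were 67.2% and 56.6% against 22.9% and 40.1%. In rarer members both came close, with 35.7% observed and 29.7% from counting for miR-466a-3p in EVs and 49.2% and 48.9% for miR-466i-3p in plasma. Others lay between, such as miR-466g in EVs with 81.1% and 38.6% and miR-466h-3p in plasma with 61.4% and 34.4%. The second value of each pair covers counting error only, and the first pools all 5 ages. Below miR-466i-5p the sets had medians of 2.5 to 13 counts per plasma library.

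miR-466i-5p and the other members did not follow each other closely over libraries. Spearman's rho of its RPM with the other 11 sets had a median of 0.345 over the 14 EV libraries, beside 0.354 with the 313 miRNAs outside the families. Over the 14 plasma libraries the median was -0.0637 with the 11 sets and 0.341 with the 313 miRNAs. With miR-574-5p, a repeat-bearing miRNA outside the families, miR-466i-5p had a rho of 0.714 in EVs and 0.552 in plasma, above that with each of the 11 sets. The highest rho over all miRNAs compared were those with miR-21b in EVs (0.802) and miR-194-5p in plasma (0.846). The cause was not tested. These values are descriptions of libraries that share their depth and divisor. Among repeat-bearing miRNAs outside the families, miR-574-5p measured 1.74 ± 1.17 RPM in EVs and 1.78 ± 0.797 in plasma (SD, n = 14 each), in the range of miR-466h-3p, and miR-1187, miR-3082-5p, miR-32-3p and miR-672-5p had means under 0.5 RPM. The annotation also places 47 other miRNA hairpins inside Sfmbt2, and 0 rows of the tables carry their names.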

How the data were processed

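Estimated counts and RPM per RNA were deposited by the authors. Per the labels, the build was mm10 and R 4.0.4 was used. For these libraries the aligner, counter and annotation were not given in the sources used here: the paper describes miRMaster and Bowtie with miRBase for its tissue libraries and points to an earlier report for the EV study. The deposited RPM column is a count divided by 1 number per library and was treated as a signal, since its sums differ between libraries. Estimated counts were rounded and tested with edgeR 4.0.16 (quasi-likelihood, TMM, Benjamini-Hochberg over all miRNAs tested, adjusted p under 0.05) after a filter of 1 RPM in over 10% of a fraction's libraries. DESeq2 1.42.0, other scalings and filters, a term per mouse and leaving out each mouse were alternatives. Correlations with age used permutation tests of 100000 resamples, two-sided. Intervals are 95% intervals of the fit. The tests were checked on simulated data whose planted changes were larger than any member's estimate, so smaller changes were not covered by that check.

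The families and lists were chosen with earlier results of these data known. Named members were the most abundant row of each family, the rows with the 3 smallest p of each count test, any row past its threshold and the rows with the highest and lowest rho, and shared-read sets were defined after seeing the counts. Both fractions were paired by the animal code of their labels, and for replicates 2 and 3 of 2 months by replicate number only. Deviations of log2(RPM + 1) from the group means, over 278 miRNAs, correlated within a mouse at 0.00723 to 0.707, above 0.1 in 13 of 14 mice. Correlations between different mice were not set beside them, so these values do not show the pairing. At 12 and 18 months, with 2 mice each, the deviations of the 2 mice mirror each other and are not separate checks. Coordinates are of GRCm38, sequences of RefSeq GRCm38.p6.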

Additional observations from a re-analysis of the deposited data

Results flagged for a closer look

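The tables also hold circular RNAs, which no comparison above used, and 5 of them are rows of Sfmbt2, the gene around the miRNA array. All 5 were above the 3 counts that a count of 0 allows, in both fractions, and this is what singled them out. How many of all circular RNA rows were above that limit was not counted, so it marks nothing particular to Sfmbt2. Whether the 5 rows share reads was not tested either. mmu_circ_0009119 had 79 counts in EVs and 70 in plasma, mmu_circ_0009120 had 75 and 64, mmu_circ_0009122 had 66 and 58, mmu_circ_0009123 had 93 and 78, and mmu_circ_0009141 had 94 and 85. Their means were 0.577 to 0.840 RPM in EVs and 0.732 to 1.03 in plasma. The protocol reads short fragments, and whether such a fragment crosses a circular junction or comes from the linear RNA was not tested. No library stood apart from its group of 4 at 6 months in any of the 26 tests of the 13 named members. A group of 4 can hardly show such a library, and other ages were not checked. In replicate 1 of 6 months in plasma, 1 count was worth 1.7 RPM, so its levels rest on very few reads.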

How the results depend on the processing

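The number of members called between the fractions was 0 under every alternative except the replicate block by mouse, where it was 1 (miR-669c-5p, log2 fold change -1.11), and 0 to 3 with the block and each mouse left out in turn. The 3 arose without replicate 1 of 18 months, where miR-669a-3p and miR-669o-3p also passed, and the block changed no call of the slope difference. Leaving out each mouse without the block gave 0 to 0 members in each of the 4 tests. Of 80 rows, 79 had at least 1 count, 1 reached 5 RPM in more than 10% of libraries, 12 sets remained of the 20 passing rows, and 19 to 20 rows passed when a mouse was left out. For miR-466i-5p the fraction contrast was above 0 with RPM scaling (0.0772), without the filter (0.0722), with 1 row per set of shared reads (0.00409) and without the 2 mice of shared plasma code (0.0105), and ran from -0.147 to 0.0912 with a mouse left out. RPM scaling raised the median of all miRNAs by 0.26 on the log2 scale. The EV slopes of miR-466i-5p and miR-466g were -0.014 and -0.033 without the 18-month mice, and with a mouse left out they ran from -0.0055 to 0.037 and from -0.048 to 0.092, both below 0 without replicate 1 of 18 months, as was the slope difference of miR-466g (-0.041 to 0.15). RPM scaling turned the EV slopes of miR-466c-3p and miR-466p-3p to 0.012 and the slope difference of miR-466i-5p to 0.0014. The causes were not tested. The count of all miRNAs called with age in plasma was 0, but 2 by DESeq2, 7 without the filter and 8 without the 18-month mice, and in EVs 1, but 5 by DESeq2 and with log2 of age, 7 without the filter, 3 without the 18-month mice and 0 with RPM scaling or a 50% filter. With a mouse left out, plasma gave 0 to 3 calls and EVs 0 to 8, the 3 without replicate 1 of 18 months and the 8 without replicate 4 of 6 months. The share of member counts from hairpins outside Sfmbt2 fell from 51.3% to 39.5% with equal rows once and to 37.9% with every row summed, both tried after the data were seen. The summed level of all members was 34.5 RPM in EVs and 33.1 in plasma with 1 row per set of shared reads. Most members rest on few counts per library, and the ages of 12 and 18 months on 2 mice each.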
